A study of Oryza sativa with 15 samples.

Results

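Severe and mild drought were compared in rice shoots to ask what a further step of soil drying adds once the plants are already short of water. The comparison took 6 of the 15 libraries of the series, the 3 severe drought libraries against the 3 mild drought libraries, assigned to their groups by their labels. All plants were Oryza sativa cultivar Nipponbare with no transgene or mutation, sown 7 per pot after 3 days of germination and harvested after 10 days of growth with 12 h light (30 °C) and 12 h dark (27 °C). Severe drought pots were held at 1.25 g of water per g of soil and mild drought pots at 1.5 g per g by daily rewatering, so the shoots had grown at that water level and had not been dried suddenly. The wet control, 3 libraries at 3 g per g, is shown beside the results. It is no side of the contrast, but like the 6 heat libraries it entered the fit that estimates the spread behind every SE, interval and p-value. Whole shoots were frozen 6 h after dawn and their messenger RNA was sequenced. The labels do not say how many shoots or pots made up a library, so the p-values measure the spread between these libraries, which may be partly technical. In whole shoots, fewer cells of a type and less RNA per cell cannot be told apart.

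When soil dries, plants make the hormone abscisic acid (ABA), which binds receptors that hold back type 2C protein phosphatases (PP2C) and so frees the SnRK2 kinases that switch on protective genes through bZIP factors. The phosphatase genes are themselves switched on by ABA and serve as a readout of the pathway. Soil water also sets the chemistry of iron in the root zone. Grasses take up iron by making nicotianamine, converting it to mugineic acid chelators that are released to the soil, and carrying the iron-bound chelator back in, and rice can also take up ferrous iron directly.

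Levels are given as CPM, read counts relative to the library total after scaling by TMM factors, a between-sample scale that does not correct for gene length. The table held 24073 genes, of which 20462 had enough counts to be tested. Total counts were 52596199 to 60320309 in severe drought and 49479059 to 67738318 in mild drought, and 3 counts, taken as the limit of detection, came to 0.0443 to 0.0606 CPM by unscaled totals. The first principal component of the 6 libraries held 55.5% of their variance and did not separate the groups: mild drought replicate 3 lay with severe drought replicates 2 and 3, and severe drought replicate 1 lay with mild drought replicates 1 and 2. The leaf identity of the samples was clear, with the light-harvesting protein gene CAB1R at 13300 to 16100 CPM in all 6 libraries. The meristem gene OSH1 and the root silicon transporter gene LSI2 had 0 counts in all 6, and the seed markers GLUA1 and OLE18 summed to 0 to 0.0865 CPM. LSI1, a silicon channel best known from roots, was present at 15.3 to 29.4 CPM in severe and 21.1 to 33.2 CPM in mild drought.

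Few differences between the 2 drought levels could be resolved. No gene passed an adjusted p of 0.05 in edgeR's quasi-likelihood test with Benjamini-Hochberg adjustment (0 of 20462, 0%; smallest adjusted p = 0.805). At an unadjusted p under 0.05 there were 569 genes (2.78%), fewer than the 5% that a uniform spread of p-values gives, 307 of them higher in severe drought (1.5%) and 262 lower (1.28%). DESeq2, run as an alternative, called 45 genes (0.225% of the 20033 to which it gave an adjusted p), 20 higher and 25 lower. The 3 severe libraries lay entirely above or below the 3 mild libraries for 949 genes (4.64%), 496 higher (2.42%) and 453 lower (2.21%). The median log2 fold change of severe over mild drought was -0.02, and the quartiles were -0.14 and 0.14.

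The intervals set how large a difference the data leave room for. The 95% interval of the log2 fold change lay within 1 in either direction, a factor of 2, for 12967 of the 20449 genes with an interval (63.4%), and within a factor of 1.5 for 7661 (37.5%). For the remaining genes the interval reaches past these limits, and for 80 of the 20449 it lies wholly beyond 1. Each interval is for its gene alone, without adjustment for the number of genes. None of the 80 passed an adjusted p of 0.05 in edgeR, so they are not established changes. The same tests found 294 genes in mild drought against the wet control (1.44%) and 550 in severe drought against the wet control (2.69%). Those comparisons share the wet control libraries and each shares a drought group with the comparison described here, so the counts are not independent of it, and the difference between 294 and 550 was not tested.

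**Figure D1:**
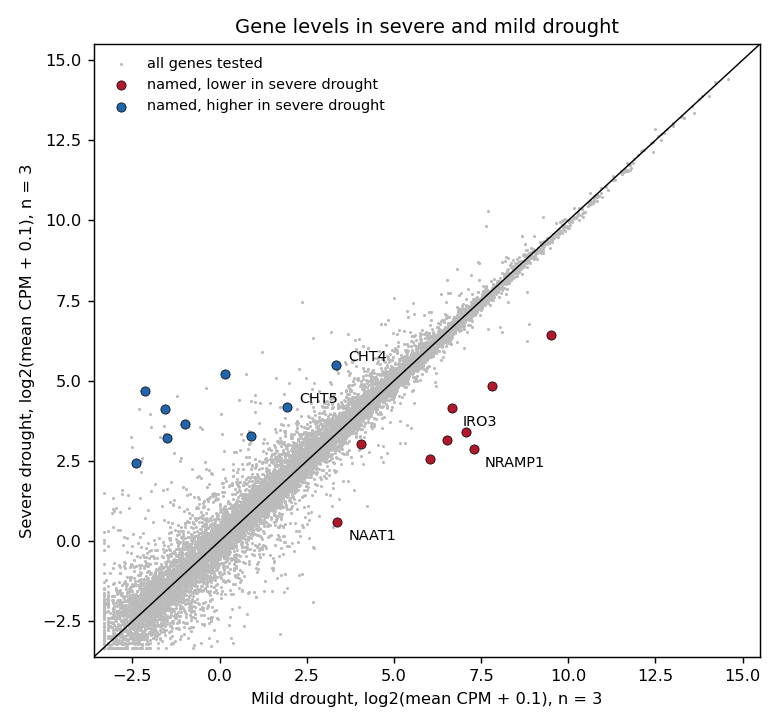
Mean level of each tested gene in mild drought (horizontal, log2 of mean CPM + 0.1) and severe drought (vertical), 3 libraries a group, with the line of equal level. Nearly all genes lie along the line, and the coloured points are the 9 genes lower and 9 genes higher in severe drought that are described by library.

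Since no gene passed the threshold, genes were named by a rule: in each direction, the 8 with the smallest p and the 4 with the largest fold change at an unadjusted p under 0.05, among genes of at least 5 CPM in the higher group whose severe and mild libraries did not overlap. The rule gave 9 lower and 9 higher genes, which differ between the groups by construction. All 18 had an adjusted p under 0.05 by DESeq2. In the rest of the 14 alternatives none of them did, except LOC_Os12g13340 and LOC_Os03g06090 when mild drought replicate 2 was left out.

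Symbols were looked up only for loci on the gene lists, so every gene with a symbol is a list member. Of the 9 genes that were lower in severe drought, 3 have such a symbol, all from the iron acquisition list. The share of iron genes among the 9 was therefore not measured. Another of the 9, LOC_Os01g72370, had been placed on the same list, but the reference does not pair a symbol with it. NRAMP1, a metal transporter of iron and other divalent metals in rice, had 17.74, 2.19 and 1.99 CPM in severe drought replicates 1, 2 and 3. In mild drought it had 258, 35.8 and 180 CPM, and in the wet control 879, 1415 and 985. The 3 groups did not overlap, with every library of the wet control above every mild library and every mild library above every severe one. The log2 fold change of severe over mild drought was -4.44 ± 0.92 (SE; 95% interval -6.43 to -2.45; adjusted p = 0.805, edgeR), and it was -6.24 without severe drought replicate 1.

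NAAT1, nicotianamine aminotransferase, makes the intermediate from which mugineic acid chelators are formed. It had 1.95, 1.46 and 0.842 CPM in severe drought, 9.17, 5.80 and 15.9 CPM in mild drought, and 35.0, 82.0 and 88.8 CPM in the wet control. Again no group overlapped the next, and the log2 fold change was -2.87 ± 0.53 (adjusted p = 0.805, edgeR). IRO3, a bHLH transcription factor of the rice iron deficiency response, had 31.1, 9.89 and 12.5 CPM in severe drought against 123, 40.7 and 141 CPM in mild drought, and 178, 329 and 311 in the wet control. Its lowest mild library stood above its highest severe library by a small margin, 40.7 against 31.1 CPM, and the log2 fold change was -2.51 ± 0.55 (adjusted p = 0.805, edgeR).

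**Figure D2:**
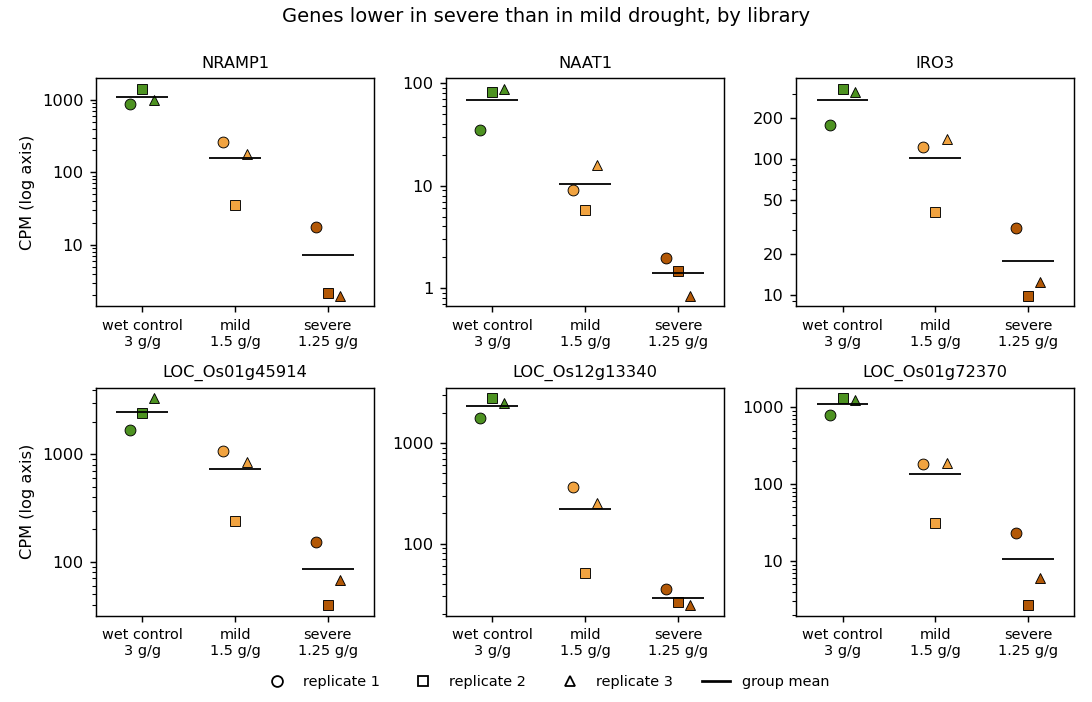
CPM in each library (log axis) of 6 genes lower in severe drought, at the 3 soil water levels; points are libraries, with a shape for each replicate number, and bars are group means. Levels are lower from wet control to mild to severe drought, and mild drought replicate 2 is the lowest mild library and severe drought replicate 1 the highest severe library in each panel.

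The other 6 lower genes have no matched symbol and are given by locus only. Apart from LOC_Os01g72370 they are on no gene list, so no symbol was looked up for them. LOC_Os12g13340 had 24.4 to 35.2 CPM in severe drought, 51.0 to 364 in mild drought and 1757 to 2777 in the wet control (severe over mild -2.96 ± 0.57). LOC_Os01g45914 had 39.4 to 152 CPM against 241 to 1076 CPM, with 1697 to 3305 in the wet control (-3.07 ± 0.63). LOC_Os01g72370 had 2.67 to 22.9 CPM against 31.1 to 189 CPM, with 801 to 1309 in the wet control (-3.67 ± 0.81). Each of these loci was lower at each drier soil level, without overlap between groups. The remaining members were LOC_Os10g11889 (-3.37 ± 0.69), LOC_Os11g15624 (-3.49 ± 0.76) and LOC_Os03g06090, the smallest of the differences (-1.02 ± 0.22), at 7.69 to 8.997 CPM in severe and 10.0 to 20.2 CPM in mild drought. In all 9 lower genes the lowest mild library was replicate 2 and the highest severe library was replicate 1, so the gap between the groups was set by the same pair of libraries each time. What sets these 2 libraries apart was not tested.

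Of 19 loci listed under iron acquisition, 13 had a symbol matched in the reference, and most of these did not pass an unadjusted p under 0.05. Of the 13, all tested, 3 were lower at an unadjusted p under 0.05 and 0 higher, against 1.28% and 1.5% of all genes, and its median log2 fold change was 0.00 beside -0.02 for all genes. With all 19 loci, an alternative added after seeing the data, 4 were lower, 1 was higher and the median was 0. The added ones are LOC_Os01g72370 on the lower side and LOC_Os12g01530 on the higher side, with 71.5 to 87.1 CPM in severe and 32.8 to 63.1 CPM in mild drought (0.64 ± 0.28). The median of the 13 includes NAS1, NAS2 and YSL15, which had 2 to 4 counts in the 6 libraries together and carry no information on this step. They had 7455, 7049 and 109 counts in the wet control and 2, 0 and 0 in mild drought. A further fall in severe drought could therefore not have been seen. NAS1 and NAS2 encode nicotianamine synthases and YSL15 the root carrier of the iron-bound chelator. YSL2, a carrier of nicotianamine-bound iron, was at 0.992 to 1.64 CPM in severe and 0.944 to 1.92 CPM in mild drought, with 22.9 to 84.1 CPM in the wet control, so its level was low at both drought levels and the groups overlapped. NAS3, another synthase gene, stood the other way round: it had 13.2 to 31.0 CPM in severe and 10.3 to 17.6 CPM in mild drought, against 0.579 to 1.92 CPM in the wet control, and its severe and mild libraries overlapped (0.58 ± 0.62).

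The carriers with high levels at every water level differed little. YSL16, which moves chelated iron through the plant, had 33.9 to 44.6 CPM in severe and 37.8 to 47.2 CPM in mild drought (95% interval of the log2 fold change -0.58 to 0.29). VIT1, a vacuolar iron transporter, had 14.5 to 21.0 against 11.9 to 26.2 CPM (-0.61 to 0.68). For IRT1, a ferrous iron transporter, the interval reached beyond 1 on the higher side only (-0.90 to 1.32). For NRAMP5, a root manganese and cadmium carrier, it did so in both directions (-1.95 to 1.96). Changes of that size in those directions were not excluded. Of the 13 matched members, 3 were lower without overlap, NRAMP1, NAAT1 and IRO3 (2.21% of all genes), and 1 was higher (2.42%). The higher one was VIT2, a second vacuolar transporter. It had 1.17 to 1.65 against 0.162 to 0.479 CPM, with a wide interval of -0.96 to 5.48. Of the listed loci without a matched symbol, LOC_Os12g01530 and LOC_Os11g01530 were also higher without overlap. LOC_Os11g01530 had 70.95 to 80.98 CPM in severe and 27.56 to 61.47 CPM in mild drought, with an interval of -0.06 to 1.53.

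A wider list of 27 iron and other metal genes was put together after these values were seen and supports nothing independently. Of its 24 tested members 2 were lower at an unadjusted p under 0.05 and 0 higher (1.28% and 1.5% of all genes), and the median was -0.02. IRT2, another ferrous iron transporter, had 1 count over the 3 severe libraries and 96 over the 3 mild libraries, a ratio of 91.1 (95% exact binomial interval 16 to 3630, counting error only). Its mild counts came from replicates 1 and 3, at 0.344 and 1.15 CPM, while replicate 2 had 0, so the groups overlapped at 0. ZIP8, a zinc transporter, was lower by the fit (-1.65 ± 0.66), but 1 mild library, replicate 2 at 19.3 CPM, stood above the other two at 4.997 and 4.23, and the severe libraries had 1.95 to 4.76 CPM.

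The 9 genes higher in severe drought had another pattern across soil water. CHT4 and CHT5 are chitinases, enzymes that cut the chitin of fungal walls and accumulate in defence and other stresses. CHT4 had 26.6, 54.0 and 54.7 CPM in severe drought replicates 1, 2 and 3 and 10.1, 15.3 and 4.54 CPM in mild drought. The wet control had 30.6, 17.3 and 9.05 CPM, a range that overlaps both. The severe libraries all stood above the mild libraries, with a log2 fold change of 2.18 ± 0.48 (adjusted p = 0.805, edgeR).

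CHT5 had 7.29, 23.9 and 23.3 CPM in severe drought, 3.02, 5.61 and 2.55 CPM in mild drought and 20.5, 8.98 and 8.39 CPM in the wet control. Here the mild libraries were below those of both other groups, and the wet control overlapped severe drought (severe over mild 2.28 ± 0.48; adjusted p = 0.805, edgeR). The 12 chitinase genes were listed after these values were seen. Of the 10 tested, 7 had a negative log2 fold change, with a median of -1.29, opposite in sign to CHT4 and CHT5. At an unadjusted p under 0.05, 3 were higher and 1 lower (1.5% and 1.28% of all genes). CHT9 and CHT11 each rested on a single library: CHT9 had 2.57 CPM in severe drought replicate 2 and at most 0.303 in the other 5, and CHT11 had 19.6 CPM in mild drought replicate 2 and at most 1.95 in the other 5. CHT1 and CHT8, with the highest wet control library at 64.1 and 67.7 CPM, were lower in severe than in mild drought on average (-1.72 ± 1.00 and -1.84 ± 1.09), with groups that overlapped.

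**Figure D3:**
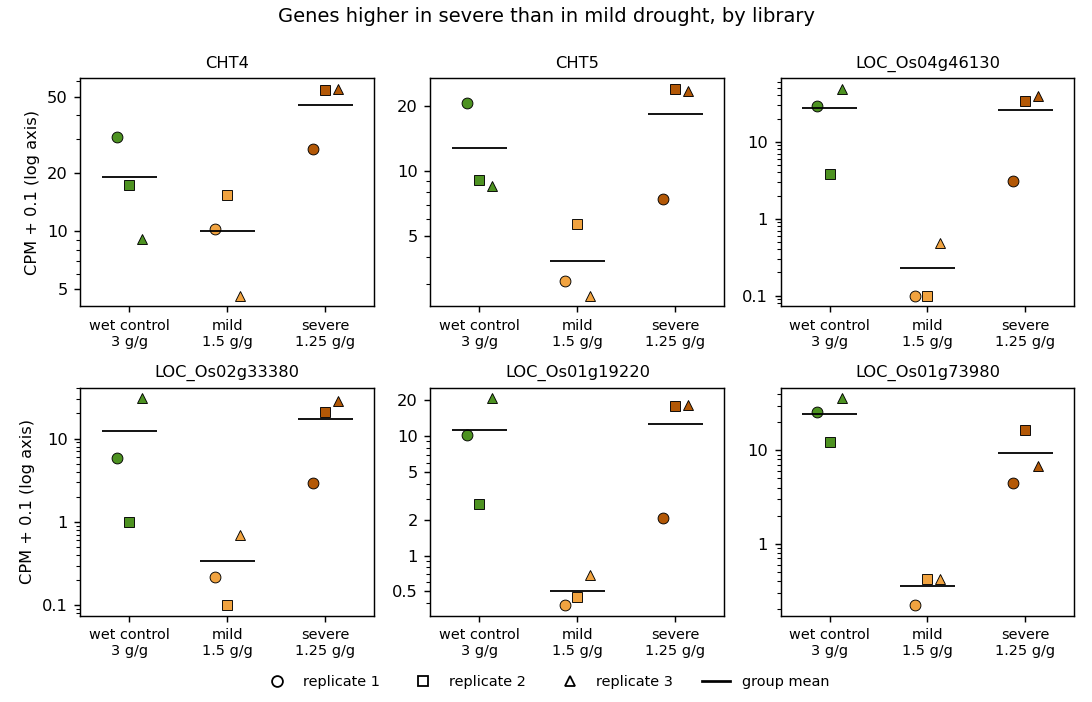
CPM + 0.1 in each library (log axis) of 6 genes higher in severe than in mild drought, at the 3 soil water levels; points are libraries, with a shape for each replicate number, and bars are group means. The mild drought libraries lie lowest for 5 of the 6 genes, while the wet control and severe drought overlap, and severe drought replicate 1 is the lowest severe library in each panel.

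The other 7 higher genes are on no gene list, so no symbol was looked up for them. LOC_Os04g46130 had 2.96, 33.7 and 39.7 CPM in severe drought and 0, 0 and 0.379 CPM in mild drought, with 28.8, 3.74 and 48.6 CPM in the wet control. The mild libraries were at or near 0 while the wet control and severe libraries spanned the same range (severe over mild 7.57 ± 1.92). Its fold change rests on the few mild counts and was 13.68 without mild drought replicate 3, which left 0 mild counts and so a value that depends on the prior count. LOC_Os02g33380 had 2.85, 20.5 and 28.4 CPM against 0.121, 0 and 0.598 CPM (6.14 ± 1.52). LOC_Os01g19220 had 1.95, 17.67 and 18.2 CPM against 0.283, 0.346 and 0.584 CPM (4.95 ± 1.20). For these 2 loci as well the wet control, at 0.886 to 30.2 and 2.59 to 20.5 CPM, lay above every mild library and overlapped severe drought.

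LOC_Os01g73980, LOC_Os03g63390 and LOC_Os03g57970 followed the same order, with log2 fold changes of 5.13 ± 1.25, 5.92 ± 1.56 and 5.17 ± 1.50, while LOC_Os12g43450 was higher by 2.44 ± 0.59 with a wet control, at 1.97 to 7.72 CPM, that overlapped both groups. Severe drought replicate 1 was the lowest severe library for all 9 higher genes. The same library was the highest severe library for all 9 lower genes, so among the severe libraries it stood nearest to mild drought in each of the 18.

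The parts of the ABA pathway differed in direction. Most phosphatase genes had positive values, the kinase genes were evenly split, and dehydrin and LEA genes were mostly negative. No member of these lists passed the adjusted threshold in edgeR. The phosphatase median was smaller without severe drought replicate 2, and the dehydrin and LEA median was much smaller in size without mild drought replicate 1. NCED3, the dioxygenase of the committed step of ABA synthesis, had 2.40, 5.08 and 2.73 CPM in severe drought replicates 1, 2 and 3 and 0.526, 1.44 and 0.861 CPM in mild drought. Every severe library stood above every mild one, and mild drought overlapped the wet control at 0.274 to 0.848 CPM. The log2 fold change was 1.85 ± 0.45 (adjusted p = 0.99, edgeR), and the 4 other tested genes of ABA synthesis and breakdown had 95% intervals within 1 in either direction. They include the 8'-hydroxylases ABA8OX1, ABA8OX2 and ABA8OX3, which break ABA down, and ZEP1, zeaxanthin epoxidase, at 410 to 658 CPM in severe and 357 to 701 CPM in mild drought.

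The ABA-linked PP2C phosphatases had a positive log2 fold change in 8 of 9 tested genes, with a median of 0.70. At an unadjusted p under 0.05, 3 were higher and 0 lower (1.5% and 1.28% of all genes), and 2 were higher without overlap (2.42% of all genes). PP2C09 had 82.7, 139 and 97.5 CPM in severe drought, 76.4, 55.3 and 64.3 CPM in mild drought, and 24.04 to 27.7 CPM in the wet control. The severe libraries lay above the mild ones, the nearest pair being 82.7 and 76.4 CPM, and all of them lay above the wet control (severe over mild 0.70 ± 0.19; 95% interval 0.29 to 1.12; adjusted p = 1, edgeR).

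PP2C49 had 4.68, 23.8 and 11.1 CPM in severe drought against 4.51, 2.51 and 6.76 CPM (1.53 ± 0.47), and PP2C68 had 6.02, 15.1 and 9.36 against 6.13, 5.44 and 3.91 CPM (0.98 ± 0.40). Severe drought replicate 1 fell inside the mild range for both genes, so these groups overlapped. Replicate 2 was the highest severe library for 8 of the 9 phosphatases. Without it the median of the list was 0.35. PP2C53, the member with a negative value, had 26.2 to 32.7 CPM in severe and 27.5 to 31.3 CPM in mild drought, a narrow interval of -0.26 to 0.23.

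**Figure D4:**
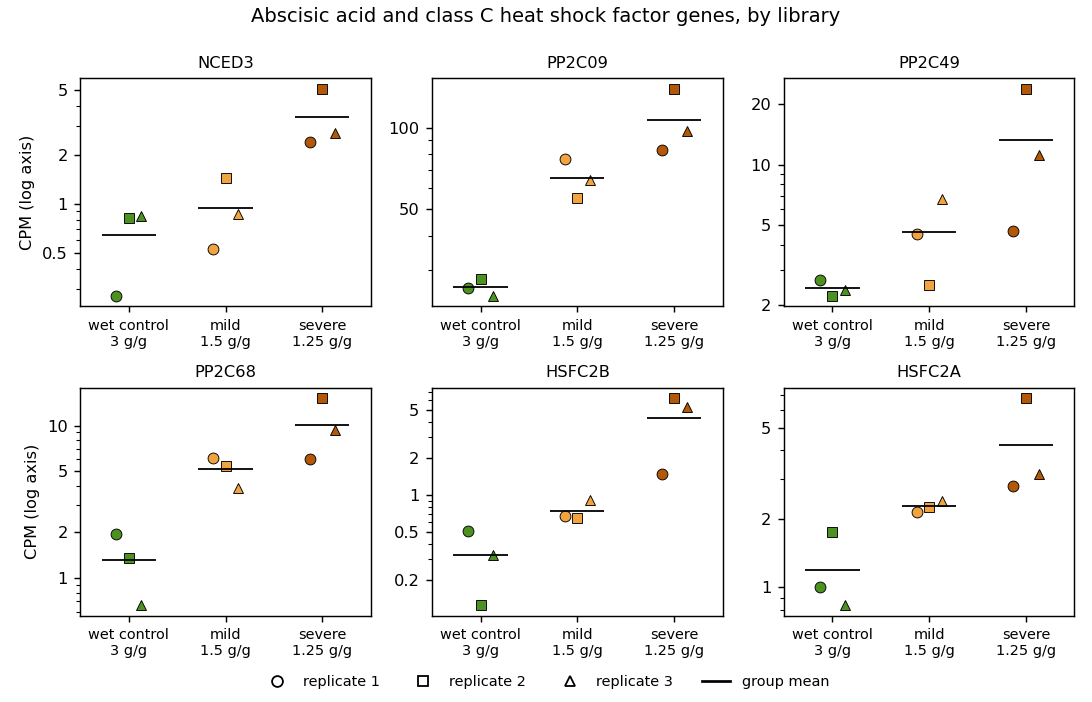
CPM in each library (log axis) of the ABA synthesis gene NCED3, the phosphatase genes PP2C09, PP2C49 and PP2C68 and the heat shock factor genes HSFC2B and HSFC2A, at the 3 soil water levels; points are libraries, with a shape for each replicate number, and bars are group means. Means are higher from wet control to mild to severe drought in each panel, and severe drought replicate 2 is the highest library in each.

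The kinase list, downstream of the phosphatases, lay closer to 0. The 10 tested SnRK2 kinase genes had a median of 0.03, and 8 had an interval within 1 in either direction. SAPK3 was the single kinase gene at an unadjusted p under 0.05 (0.48 ± 0.22), with groups that overlapped. Among all genes 1.5% were higher at that limit. BZIP23, a bZIP factor of ABA responses, had 24.9, 50.3 and 33.1 CPM in severe and 25.9, 20.7 and 29.1 CPM in mild drought (0.52 ± 0.22), again with replicate 1 inside the mild range.

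Among 12 tested drought and cold transcription factors, 1 was higher and 1 lower at an unadjusted p under 0.05 (1.5% and 1.28% of all genes). HOX22, a homeodomain factor, was the higher one, with 53.5 to 79.5 against 40.4 to 53.9 CPM (0.40 ± 0.18). NAC5, a stress-responsive NAC factor, was lower without overlap, with 39.1, 27.2 and 29.2 CPM in severe and 52.3, 48.9 and 42.6 CPM in mild drought (-0.59 ± 0.23; 95% interval -1.08 to -0.10). The wet control, at 34.4 to 49.2 CPM, overlapped both. DREB2A and DREB2B, factors of the dehydration response, had intervals of -0.51 to 0.33 and -0.55 to 0.29.

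Dehydrins and other late embryogenesis abundant (LEA) proteins protect cell structures during drying and are classical products of the ABA pathway. Of 8 tested genes, 4 were lower and 0 higher in severe drought at an unadjusted p under 0.05 (1.28% and 1.5% of all genes), and the median was -2.44, the opposite sign from the phosphatases. LEA3 had 0.367, 0.490 and 0.303 CPM in severe drought and 12.1, 1.64 and 0.598 CPM in mild drought (-3.604 ± 1.13). RAB21 had 0.257, 0.346 and 0.185 CPM against 10.7, 0.186 and 0.336 CPM (-3.81 ± 1.26). For both genes mild drought replicate 1 stood far above every other library, and the median of the list without that library was -0.06.

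LEA3-2 differed in a second library: it had 6.17, 1.22 and 21.0 CPM in mild drought, 0.845 to 1.64 CPM in severe drought, where the groups overlapped, and 30.4 to 92.3 CPM in the wet control (severe over mild -2.90 ± 0.91). RAB16D, a dehydrin gene, was scarce throughout, with 0, 0.0288 and 0 CPM in severe and 0.566, 0.106 and 0.175 CPM in mild drought. LIP9, the dehydrin gene with the steadiest level, had 15.1 to 29.4 CPM in severe and 15.6 to 22.5 CPM in mild drought (-0.21 to 0.79). EMP1, an embryo LEA gene, had 0 counts in all 6 libraries and 2.90, 18.4 and 7.66 CPM in the wet control.

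Heat shock factors are transcription factors of protein stress, and a few of them stood higher in severe drought. Of 20 tested, 4 were higher at an unadjusted p under 0.05 (1.5% of all genes) and without overlap (2.42%), 0 were lower, and the median was -0.01. HSFC2B, of the plant class C, had 1.49, 6.19 and 5.25 CPM in severe drought, 0.668, 0.652 and 0.905 CPM in mild drought, and 0.125 to 0.510 CPM in the wet control. No 2 of the water levels overlapped (severe over mild 2.54 ± 0.58; adjusted p = 0.845, edgeR). HSFC2A, of the same class, had 2.77, 6.75 and 3.15 CPM against 2.15, 2.26 and 2.39 CPM, again without overlap (0.90 ± 0.38).

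HSFA6B (1.08 ± 0.37) and HSFB2A (0.41 ± 0.19) were the other two. The heat shock proteins themselves, 10 tested, had a median of 0.02 and 0 members at an unadjusted p under 0.05. HSP101, a disaggregase, was higher without overlap by a narrow margin, at 4.06 to 8.15 against 3.30 to 3.98 CPM, with an interval of -0.20 to 1.46, and the 10 genes together summed to 155 to 175 CPM in severe and 143 to 181 CPM in mild drought.

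**Figure D5:**
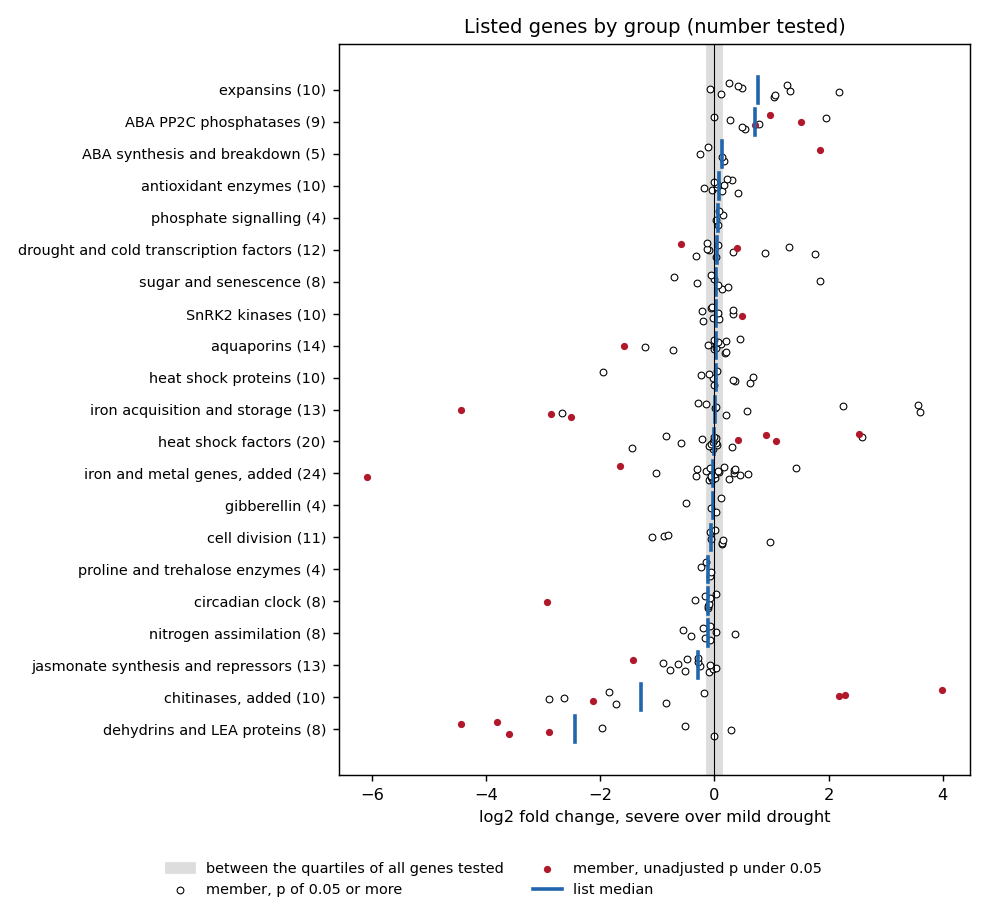
Log2 fold change of severe over mild drought (horizontal) for each tested member of the gene lists with at least 4 tested genes, ordered by list median (blue bar); red points have an unadjusted p under 0.05 and the grey band runs between the quartiles of all genes tested. Most medians lie within or near the band, with the phosphatases and expansins above it and the jasmonate, chitinase and dehydrin and LEA lists below it.

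The circadian clock list lay near 0. Of 8 tested genes 7 had intervals within 1 in either direction, among them LHY and GI, a morning factor and an evening regulator, and the median was -0.11. PCL1, a component of the evening complex, was the exception, with 0.147, 0.0865 and 0.0337 CPM in severe drought and 1.21, 0.372 and 0.511 CPM in mild drought (-2.94 ± 0.62; adjusted p = 0.805, edgeR). Severe libraries lay below the mild ones, while the wet control, at 0.346 to 1.23 CPM, overlapped mild drought. The gene was scarce, with 16 counts over the severe libraries and 123 over the mild libraries. Severe drought replicate 3, at 0.0337 CPM, lay below the limit of detection of that library, 0.0538 CPM.

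Aquaporins, the water channels of the plasma membrane (PIP) and vacuole (TIP), had a median of 0.03 over 14 tested genes. At an unadjusted p under 0.05, 1 was lower and 0 higher (1.28% and 1.5% of all genes). PIP2;4 had 1.10, 0.577 and 0.556 CPM in severe and 1.90, 3.55 and 1.25 CPM in mild drought, without overlap (-1.59 ± 0.53). Some abundant channels hardly differed: PIP1;1 had 926 to 1072 against 785 to 1044 CPM (-0.17 to 0.53), PIP2;2 had 548 to 652 against 506 to 667 CPM (-0.35 to 0.41), and TIP1;2 had 848 to 1106 against 763 to 1011 CPM (-0.23 to 0.63). PIP2;7, also abundant, had 574 to 956 against 498 to 890 CPM, with a wider interval of -0.999 to 1.04. PIP1;1, PIP2;2 and TIP1;2 stood lower in the wet control, at 460 to 613, 250 to 373 and 227 to 298 CPM. Other abundant channels did not, such as PIP2;1 and TIP1;1. Their wet control ranges, 288 to 392 and 388 to 873 CPM, overlapped both drought groups.

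Expansins loosen cell walls in growing tissue. Their 10 tested genes had a median of 0.76 with 9 positive values, but 0 passed an unadjusted p under 0.05 and severe drought replicate 2 was the highest severe library for all 10. Summed over the list, that library had 263 CPM against 44.9 and 101 CPM in severe replicates 1 and 3 and 55.5 to 137 CPM in mild drought, and without it the median was -0.42. For cell division the median over 11 tested genes was -0.06, with 0 at an unadjusted p under 0.05. Of the 11, 3 had an interval within 1 in either direction: PCNA, CDKB1;1 and MCM2. The 12 listed genes summed to 14.9 to 18.5 CPM in severe and 15.01 to 17.3 CPM in mild drought. Most of that sum came from the same 3 genes, at means of 6.10, 6.01 and 2.89 CPM in severe drought. Other members were scarce, such as MCM3 at means of 0.0998 CPM in severe and 0.213 CPM in mild drought. Its interval was -3.57 to 1.38, so the sum says little about such genes.

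Of 13 tested genes of jasmonate synthesis and of its JAZ repressors, 12 had a negative value, with a median of -0.30 and 1 lower at an unadjusted p under 0.05 (1.28% of all genes). Mild drought replicate 3 was the highest mild library for 11 of the 13 and severe drought replicate 2 the highest severe library for 10, and without mild drought replicate 3 the median was -0.01. The gene at a low p was TIFY11C, a JAZ repressor, with 1.07, 1.18 and 1.58 CPM in severe and 3.56, 3.21 and 3.47 CPM in mild drought (-1.42 ± 0.65). The groups did not overlap, and wet control replicate 1, at 8.30 CPM, stood above both. The 3 photosynthesis genes that could be tested, CAB1R, CAB2R and RBCS, all had intervals within 1 in either direction and a median of 0.02.

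Other lists had 0 members at an unadjusted p under 0.05: 10 antioxidant enzymes (median 0.09, 9 intervals within 1), 8 genes of nitrogen assimilation (-0.12), 8 of sugar use and senescence (0.03), 4 of proline and trehalose synthesis (-0.11), 4 of gibberellin (-0.02), 4 of phosphate signalling (0.07) and 1 defence gene of the PR class (-0.54). P5CS1, which makes the protective solute proline, had 35.1 to 45.6 CPM in severe and 36.9 to 45.7 CPM in mild drought, an interval of -0.38 to 0.24. SUS1, a sucrose synthase, had 53.9 CPM in severe drought replicate 2 and 9.53 and 13.9 CPM in the others, against 3.84 to 9.61 CPM in mild drought, with an interval of -0.47 to 4.18.

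Over the 26 lists chosen for the pathways above, 188 genes were tested, of which 0 were past the adjusted threshold, 11 were higher and 11 lower at an unadjusted p under 0.05 (11.7% together, beside 2.78% of all genes), and 91 had an interval within 1 in either direction (48.4%, beside 63.4%). The lists were put together with earlier results of these data known, so their share of low p-values is not independent of them.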

How the data were processed

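Stranded mRNA libraries were built from whole-shoot RNA with a NEBNext kit, per the labels' protocols. The authors deposited raw counts per gene, trimmed, aligned and counted with Trimmomatic, HISAT2 and featureCounts, per the submitters' processing notes; versions, build and strand setting were not given in the sources used. Reads of overlapping, antisense or near-identical genes may therefore be shared. Identifiers end in .MSUv7.0.

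Counts were tested with edgeR 4.0.16 in R 4.3.3: filterByExpr (minimum count 10, minimum total 15), TMM factors, and a robust quasi-likelihood fit of 15 libraries with 1 mean per group, so that the 5 groups share 1 estimate of spread. P-values were Benjamini-Hochberg adjusted over all genes. SE is the log2 fold change over the root of F. DESeq2 1.42.0 and sva 3.50.0 were alternatives, and the closing section gives their effect. No replicate pair agreed within sampling noise (chi-square per gene 44.6 to 280.2).

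The comparison, its gene lists and the naming rule were chosen with earlier results of these data known. Named genes are those of the stated rule plus, in each list, members with the smallest p; others were named after their values were seen. Symbols were taken from the RefSeq table of ASM3414082v1, where 242 of 291 listed loci were found by symbol and position and 237 were used; no coordinates or sequences are given, since the builds differ. Counting intervals and the floor of 3 counts cover counting error only, because PCR copies of a molecule are counted as separate reads.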

Additional observations from a re-analysis of the deposited data

How the results depend on the processing

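The count of 0 genes past the threshold held with RLE size factors, no filter on low counts, total counts only, the 6 drought libraries alone, the 9 libraries of the 3 water levels, the replicate block and 1 surrogate variable (added after seeing the data). It was 45 with DESeq2, and 0 to 4 when 1 library was left out: the 4, all lower and all without mild drought replicate 2, were LOC_Os10g07340, LOC_Os11g31740, LOC_Os12g13340 and LOC_Os03g06090. At an unadjusted p under 0.05 there were 198 higher and 132 lower genes in the 9 libraries of the 3 water levels, 142 lower in the 6 drought libraries alone and 401 lower by DESeq2. With 1 library left out the higher count ran from 131 (without severe drought replicate 2) to 1478 (without mild drought replicate 3) and the lower count from 180 to 428. Severe drought replicate 1 (730 higher without it) and mild drought replicates 1 and 2 (159 and 172) also moved the higher count by over 1.5 times. The cause was not tested. The count of genes with an interval within 1 in either direction stayed between 11370 and 13998.

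Of 63 genes followed, 53 could be fitted in all alternatives, and 59 kept their sign wherever they were fitted. LOC_Os05g15850 and LOC_Os10g05750 came to 0 without severe drought replicate 2; with 1 library left out, the log2 fold change of RAB21 ran from -4.375 to 0.019 (without mild drought replicate 1) and that of CHT11 from -2.66 to 0.79 (without mild drought replicate 2). Same-numbered severe and mild libraries correlated by 0.33, -0.44 and 0.33 in their deviations from the group means. Not every library correlated best with its own number. With so few libraries a group, these values cannot decide whether the numbers paired the samples. The replicate block gave 0 calls and 623 genes at an unadjusted p under 0.05. Keeping all listed loci, matched in the reference or not, moved several list medians (added after seeing the data). The PR defence list went from -0.54 with 1 gene to -1.41 with 5, and the dehydrin and LEA list from -2.44 to -1.97. The bZIP factors of ABA responses went from 0.31 to 0.17, the photosynthesis list to -0.15 and the gibberellin list to -0.10. Wax synthesis, a list with no matched locus, had a median of 1.33 over 3 genes. Total counts ran from 49479059 to 67738318, and the median SE over genes was 0.27.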

Other observations

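The heat libraries of the series, wet-soil shoots moved to 40 °C for 30 or 60 min, were no side of a comparison above, although the fit took its spread from them too. TMM factors were 0.622 to 0.706 after 30 min of heat, 1.066 to 1.131 after 60 min and 1.059 to 1.318 in the wet control. Levels set beside the wet control, above all those after 30 min, rest on this scaling. Overlap by unscaled totals was not examined. Of the 9 genes named as lower in severe drought, 7 overlapped their wet control levels after 30 min and 7 after 60 min. NRAMP1 had 1389 ± 675 CPM (SD, n = 3) after 30 min and 1637 ± 280 after 60 min, against 879 to 1415 in the wet control. IRO3 had 375 ± 172 and 353 ± 57.9 CPM, and LOC_Os12g13340 had 1574 ± 723 and 1898 ± 259 CPM. The exceptions were LOC_Os03g06090, above its wet control at both times, LOC_Os01g72370, below it after 30 min at 213 to 672 CPM against 801 to 1309, and NAAT1, below it after 60 min. NAAT1 stood at 33.9 ± 17.5 and 21.3 ± 2.65 CPM, against 35.0 to 88.8 in the wet control and 5.80 to 15.9 in mild drought.

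The loci that were near 0 in mild drought varied widely inside every other group. LOC_Os04g46130 had 28.8, 3.74 and 48.6 CPM in the wet control, 5.82, 0.413 and 1.14 CPM after 30 min of heat and 1.69, 0 and 2.36 CPM after 60 min, so the wet control libraries spread as widely as the severe drought ones. HSFC2B, which stood higher at each drier level, had 9.88 ± 5.48 CPM after 30 min of heat and 1.09 ± 0.319 after 60 min. NCED3 had 1.20 ± 0.161 CPM after 30 min and 3.77 ± 0.407 after 60 min, a level close to the 2.40 to 5.08 CPM of severe drought. CHT4 and CHT5 had 15.4 ± 1.35 and 10.9 ± 0.376 CPM after 60 min, inside their wet control ranges. None of these differences was tested here.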
